A study of Arabidopsis thaliana with 27 samples.

Results

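The difference in transcript levels of Arabidopsis thaliana seedlings between 22 and 29 °C was compared between a T-DNA insertion line of EARLY FLOWERING 3 (ELF3) and wild type. The protocol lists these temperatures in parallel with Zeitgeber times (times of day) of 16 h and 24 h. The members are the 12 of 27 libraries that form 4 groups of 3: the insertion line at 29 °C, the insertion line at 22 °C, wild type at 29 °C and wild type at 22 °C. The genotype labels are ELF3 T-insert and WT, the source is whole seedling, and the protocol names an insertion line ELF3-101 and another mutant ELF3-16, both set against Columbia. The measure is the interaction: the difference between 29 and 22 °C in the insertion line, minus the same difference in wild type, on log2(TPM + 1), where TPM is a transcript level scaled for gene length and library total. An interaction below 0 means that a transcript gained less, or lost more, at 29 °C in the insertion line than in wild type. The other 15 libraries are the same genotypes at 16 °C and a line whose ELF3 carries the S364P change at 3 temperatures. They share the estimate of the spread, and only the S364P line at 29 and 22 °C enters a comparison below.

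The evening complex is a transcriptional repressor of the plant clock, in which ELF3 holds together ELF4 and the DNA-binding proteins LUX or BOA. In wild type this complex keeps clock genes and growth genes such as PIF4 low at night, and warmth weakens its repression, so that PIF4 and its auxin targets rise and the hypocotyl elongates. A line without a working complex is known to hold these targets high at any temperature, and the interaction asks which transcripts still respond to warmth in it as they do in wild type.

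ELF3 (AT2G25930) was at 41.9, 38.1 and 39.0 TPM in the insertion line at 29 °C and at 31.4, 35.5 and 39.1 TPM in the insertion line at 22 °C. It was at 41.6, 40.3 and 38.9 TPM in wild type at 29 °C and at 23.2, 18.1 and 20.03 TPM in wild type at 22 °C. Wild type at 22 °C stood below every other group. Where in ELF3 the insertion lies was not stated, and a gene-level value takes in transcript on either side of it, so loss of function could not be checked from this level. The labels do not say that replicates were grown separately, so the p-values rest on the spread between these samples alone, which may be technical. The protocol lists Zeitgeber times of 16 h and 24 h in parallel with 22 and 29 °C. Read literally, temperature and time of day cannot be told apart within a genotype, while both genotypes shared the same pair of conditions.

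TPM keeps no sequencing depth, so depth is unknown and no counting interval is given. Between 23430 and 23854 genes were above 0 in each of the 12 libraries, and between 19269 and 20043 reached 1 TPM. Across genes, replicates correlated at r = 0.987 to 0.993 (12 pairs), while pairs from different groups gave 0.961 to 0.986 (54 pairs). Of 9 flower organ and seed markers, none passed the filter and the highest value was 0.93 TPM. All 24 root markers were tested and none was at 0 in every library of a group. Their summed level was 2073 to 2435 TPM in the insertion line at 29 °C and 1189 to 1866 TPM in the insertion line at 22 °C, against 2401 to 3191 TPM in wild type at 29 °C and 2493 to 3445 TPM in wild type at 22 °C. Their mean log2(TPM + 1) was 2.96 and 2.69 in the insertion line and 3.06 and 3.33 in wild type at 29 and 22 °C. The mean root level was thus higher at 29 °C in the insertion line and lower at 29 °C in wild type, and its part in the results below was not tested. In whole seedlings, fewer cells of a type and less RNA per cell cannot be told apart.

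Of 21396 genes tested, 3818 had an interaction past an adjusted p of 0.05 (limma, two-sided, Benjamini-Hochberg over all tested genes), which is 17.8%. A gene past this threshold is named called below, and each count of list members above or below 0 is of called members, while each median is over all tested members. The interaction was above 0 in 1865 of them (8.72% of tested genes) and below 0 in 1953 (9.13%). It reached at least 1 log2 in 402 genes (1.88%), 268 above and 134 below 0, and the median over all tested genes was 0.059. The difference between conditions was called in more genes: 10159 between 29 and 22 °C in the insertion line (47.5%; 37.9% higher and 9.61% lower at 29 °C) and 8093 in wild type (37.8%; 28.8% higher and 9.05% lower). A difference of at least 1 log2 was called in 686 genes (3.21%) in the insertion line and in 527 (2.46%) in wild type. The balance of directions depends on the scaling. The median difference over all genes was 0.186 in the insertion line and 0.117 in wild type, against -0.001 and -0.005 after median-of-ratios scaling, which centres the libraries on each other, where 47.1% and 49.2% of calls were higher at 29 °C (79.8% and 76.1% in TPM). For the interaction, 41.2% of calls were above 0 after that scaling and 44.1% after quantile normalization, against 48.8% in TPM. Without replicate 1 of the insertion line at 22 °C, the lowest of that line's 6 libraries by root score, 1045 genes were called above 0, and with the root score as a covariate across groups 880 were.

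The called genes fell into 5 patterns by which genotype's own response was called. The largest group, 1525 genes or 39.9%, responded in the insertion line alone, and 1099 of these had an interaction above 0. A further 1103 genes (28.9%) responded in wild type alone, with 759 below 0. Another 776 genes (20.3%) responded in the same direction in both genotypes but to a different degree, 332 (8.7%) in opposite directions, and 82 (2.15%) in neither. For 61.4% of called genes the difference between the insertion line and wild type was smaller at 29 °C than at 22 °C. This share was 83.9% among genes that responded in wild type alone and 45.4% among those that responded in the insertion line alone. Because the genes were selected by the interaction, these shares describe them and test nothing. Which pattern was largest depends on the fit. With the replicate block, 1096 genes responded in wild type alone and 605 in the insertion line alone. Without replicate 1 of the insertion line at 22 °C these counts were 945 and 804. With the root score as a covariate across groups they were 837 and 709.

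**Figure D1:**
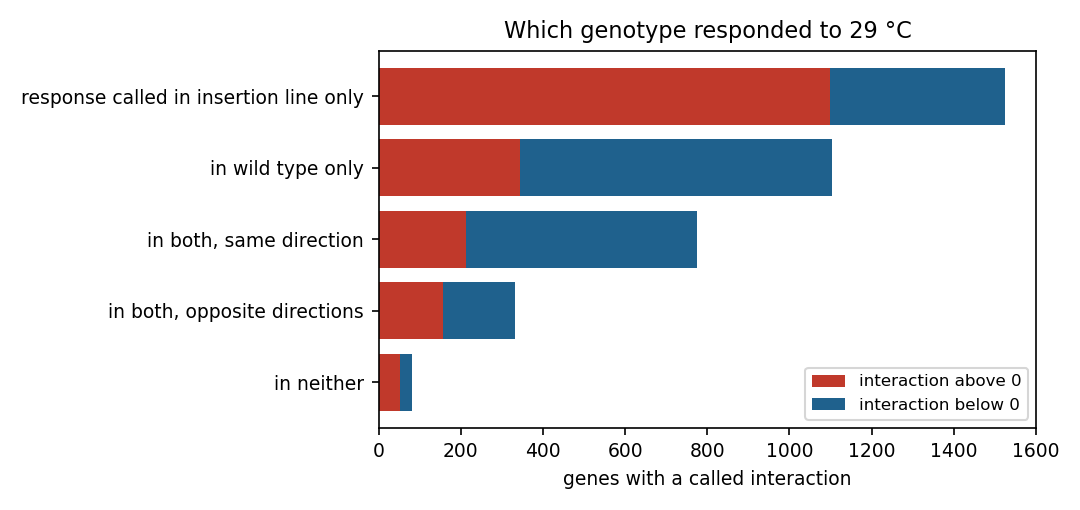
Number of genes with a called interaction (x axis) by which genotype's own difference between 29 and 22 °C was called (y axis), split by the sign of the interaction. Most genes that responded in the insertion line alone had an interaction above 0 (1099 of 1525), and most that responded in wild type alone had one below 0 (759 of 1103).

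Of the 4 evening complex genes, 3 had a called interaction below 0 and none a called one above it (median -1.01). All 4 were called higher in the insertion line than in wild type at 22 °C, against 24.6% of tested genes. LUX (AT3G46640), a DNA-binding subunit, was at 104, 115 and 115 TPM in the insertion line at 29 °C and at 92.7, 93.8 and 108 TPM in the insertion line at 22 °C. It was at 26.1, 23.3 and 29.1 TPM in wild type at 29 °C and at 9.33, 7.16 and 8.07 TPM in wild type at 22 °C. The insertion-line libraries of both temperatures overlapped, while the wild-type ones did not. The LUX difference between temperatures was 0.18 in the insertion line (adjusted p = 0.105) and 1.57 in wild type (adjusted p = 2.16e-11), and the interaction was -1.39 ± 0.13 (SE; limma adjusted p = 2.26e-07).

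BOA (AT5G59570), the close relative of LUX in the same role, was at 32.5, 37.5 and 34.6 TPM in the insertion line at 29 °C and at 27.6, 24.4 and 29.1 TPM at 22 °C. In wild type it was at 11.95, 11.8 and 12.9 TPM at 29 °C and at 3.59, 2.85 and 3.77 TPM at 22 °C. No 2 of these groups overlapped, and BOA had an interaction of -1.23 ± 0.14 (limma adjusted p = 5.16e-06). ELF3 transcripts themselves gave -0.78 ± 0.11 (limma adjusted p = 5.03e-05), with a called rise in wild type alone. ELF4, the small subunit that stabilises ELF3, averaged 49.7 ± 1.49 and 40.7 ± 10.2 TPM in the insertion line and 11.8 ± 1.3 and 6.63 ± 2.67 TPM in wild type (SD, n = 3 each, 29 and 22 °C), and its interaction of -0.50 ± 0.27 did not pass (limma adjusted p = 0.22). The ELF4 interaction was called with the root score as a covariate across groups. Of the 4 genes, 1 rose in the insertion line and 4 in wild type. After median-of-ratios scaling none was called in the insertion line.

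The start-site windows of LUX, BOA and PRR9, members of the complex or genes it binds, are shown as examples. These genes had a called interaction below 0, and their windows were picked because they hold some of the motifs searched. Each is the 250 bases before the RefSeq gene start in TAIR10.1, 5′ to 3′, plus strand, with motif matches in capitals.
LUX, chr3:17182792-17183041: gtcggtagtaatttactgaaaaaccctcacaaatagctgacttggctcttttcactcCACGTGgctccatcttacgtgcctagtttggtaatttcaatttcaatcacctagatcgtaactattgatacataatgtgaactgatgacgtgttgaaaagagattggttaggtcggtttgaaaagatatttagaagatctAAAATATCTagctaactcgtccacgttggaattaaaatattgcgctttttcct
BOA, chr5:24003638-24003887: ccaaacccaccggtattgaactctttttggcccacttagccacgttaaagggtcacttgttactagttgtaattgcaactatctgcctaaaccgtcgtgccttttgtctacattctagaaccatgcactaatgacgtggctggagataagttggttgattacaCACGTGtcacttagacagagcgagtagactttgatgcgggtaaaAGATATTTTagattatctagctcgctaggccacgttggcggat
PRR9, chr2:19232357-19232606: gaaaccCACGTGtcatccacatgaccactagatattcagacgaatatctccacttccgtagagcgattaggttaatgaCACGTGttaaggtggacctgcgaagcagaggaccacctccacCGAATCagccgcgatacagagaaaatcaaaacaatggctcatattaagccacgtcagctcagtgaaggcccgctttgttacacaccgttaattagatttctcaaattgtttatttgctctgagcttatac
Both strands were searched for GATACG and GATTCG, the LUX-binding motifs, for CACGTG, the G-box bound by PIF proteins, and for AAAATATCT, the evening element bound by CCA1 and its relatives. No one of these strings contains another, and CACGTG reads alike on both strands. The LUX window holds the G-box at -193 and the evening element at -53 from the gene start, the BOA window the G-box at -87 and the evening element on the opposite strand at -43, and the PRR9 window G-boxes at -244 and -172 and GATTCG on the opposite strand at -130. Among 19893 windows of tested protein-coding genes, 4.64% hold GATACG, 8.38% GATTCG, 7.32% the G-box and 2.45% the evening element. A LUX-binding motif stands in 3 of the 10 windows of evening complex genes and targets, ELF3, ELF4 and PRR9, against 12.6% of all windows. The windows of the targets GI, LNK1 and PIF4 hold none of these motifs. All matches describe the letters alone.

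Of the 8 evening complex targets tested, 5 had a called interaction below 0 and none a called one above it, with a median of -0.92. PRR7 (AT5G02810), a clock repressor, was at 41.6, 37.6 and 42.1 TPM in the insertion line at 29 °C and at 39.1, 41.8 and 37.9 TPM at 22 °C. In wild type it was at 4.93, 5.45 and 4.12 TPM at 29 °C and at 1.98, 1.03 and 1.23 TPM at 22 °C. The insertion line thus held PRR7 at the same level at both temperatures within its spread, and the interaction was -1.26 ± 0.17 (limma adjusted p = 3.69e-05). PRR9 (AT2G46790), the morning member of that family, fell in the insertion line, with 4.94, 4.41 and 5.19 TPM at 29 °C against 8.51, 9.22 and 8.77 TPM at 22 °C. In wild type it was at 0.66, 0.57 and 0.58 TPM at 29 °C and at 0.78, 0.72 and 0.86 TPM at 22 °C, a difference that did not pass (-0.16, limma adjusted p = 0.181). Its interaction was -0.60 ± 0.13 (limma adjusted p = 0.00226).

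GIGANTEA (GI, AT1G22770), an evening clock and flowering gene, rose in both genotypes. It was at 25.4, 24.3 and 29.2 TPM in the insertion line at 29 °C and at 15.8, 18.6 and 18.3 TPM at 22 °C. In wild type it was at 1.28, 1.29 and 1.25 TPM at 29 °C and at 0.57, 0.29 and 0.16 TPM at 22 °C, with no overlap within a genotype. The rise was 0.55 in the insertion line and 0.77 in wild type on the log2(TPM + 1) scale, and the interaction of -0.22 ± 0.17 did not pass (limma adjusted p = 0.398). This scale understates changes at the low GI levels of wild type, and the GI interaction was called with a pseudocount of 0.1. LNK1, a coactivator of REVEILLE proteins, and PIF5 had interactions of -0.37 and 0.02 that did not pass either. PIF5 stood near 86.3 and 87.8 TPM in the insertion line and 65.5 and 67.8 TPM in wild type.

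Of the 13 evening clock genes, 8 had a called interaction below 0 and none a called one above it (median -0.63), 5 rose in the insertion line and 12 rose in wild type, with LUX and BOA counted here as well. COR27 (AT5G42900), a small clock regulator, was at 62.4, 90.3 and 72.3 TPM in the insertion line at 29 °C and at 72.7, 65.3 and 66.0 TPM at 22 °C. In wild type it was at 10.8, 10.2 and 13.0 TPM at 29 °C and at 2.14, 2.40 and 3.03 TPM at 22 °C. COR27 groups overlapped in the insertion line alone, and the interaction was -1.68 ± 0.21 (limma adjusted p = 1.35e-05). PRR3 gave -1.36 ± 0.15 (limma adjusted p = 4.87e-06), with 23.7 ± 1.36 and 22.3 ± 2.97 TPM in the insertion line and 4.22 ± 0.46 and 0.913 ± 0.24 TPM in wild type. TOC1, the core evening repressor, rose in both genotypes, to 75.3 ± 6.4 TPM in the insertion line, against 55.2 ± 2.45 TPM at 22 °C, and to 29.3 ± 0.923 TPM in wild type, against 15.2 ± 1.56 TPM. Its interaction was -0.47 ± 0.10 (limma adjusted p = 0.00261), while on the plain TPM scale the insertion line gained more, by 5.97 TPM. PRR5 gave -0.58 ± 0.21 (limma adjusted p = 0.0583), and was called under 6 alternatives, median-of-ratios scaling and quantile normalization among them.

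Of the 14 morning clock genes, 5 had a called interaction below 0 and none a called one above it (median -0.34). 10 fell and none rose in the insertion line at 29 °C, while in wild type 5 fell and 5 rose. CCA1 (AT2G46830) and LHY (AT1G01060), the paired dawn repressors, fell in both genotypes from very different levels. CCA1 was at 7.05, 5.34 and 6.90 TPM in the insertion line at 29 °C and at 16.4, 13.6 and 12.4 TPM at 22 °C. In wild type it was at 141, 148 and 122 TPM at 29 °C and at 222, 221 and 228 TPM at 22 °C. The interactions of -0.32 for CCA1 and -0.37 for LHY did not pass (limma adjusted p = 0.116 and 0.11). Both were called after quantile normalization. CCA1 was also called without replicate 3 of the insertion line at 22 °C, and LHY with a pseudocount of 0.1. RVE8, an activator of evening genes, gave -0.22 (limma adjusted p = 0.471). RVE2 moved in opposite directions: it was at 169, 249 and 185 TPM in the insertion line at 29 °C and at 334, 319 and 315 TPM at 22 °C, against 500.1, 481 and 516 TPM in wild type at 29 °C and 403, 339 and 409 TPM at 22 °C. Its interaction was -1.08 ± 0.17 (limma adjusted p = 0.000164), and the wild-type rise was not called after median-of-ratios scaling. RVE7 gave -1.05 ± 0.16 (limma adjusted p = 8.61e-05), with a called rise in wild type alone.

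PIF4 (AT2G43010), the transcription factor that drives elongation in warmth, was at 88.1, 107 and 96.7 TPM in the insertion line at 29 °C and at 81.1, 78.5 and 81.7 TPM at 22 °C. In wild type it was at 19.3, 17.7 and 19.6 TPM at 29 °C and at 3.98, 3.97 and 4.14 TPM at 22 °C. All 4 groups were separate, with wild type at 29 °C still below the insertion line at 22 °C. The PIF4 rise was 0.27 in the insertion line (limma adjusted p = 0.0164) and 1.98 in wild type (limma adjusted p = 8.24e-13), and the interaction was -1.71 ± 0.12 (limma adjusted p = 1.26e-08). After median-of-ratios scaling the insertion-line rise was 0.05 and not called. In plain TPM the insertion line gained 2.06 more than wild type, so the sign depends on the scale.

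Of 16 PIF and shade factors, 8 had a called interaction below 0 and 2 above it (median -0.34). 7 rose and none fell in the insertion line, against 12 that rose and 2 that fell in wild type. After median-of-ratios scaling 4 rose and 4 fell in the insertion line, so no direction is given for that list there. PAR1, a brake on shade growth that pairs with PIF proteins, was at 72.6, 115 and 90.9 TPM in the insertion line at 29 °C and at 109, 97.8 and 118 TPM at 22 °C. In wild type it was at 24.2, 22.4 and 23.9 TPM at 29 °C and at 8.69, 8.86 and 8.94 TPM at 22 °C. Its interaction was -1.55 ± 0.20 (limma adjusted p = 2e-05). ATHB2, a shade-induced homeobox factor, rose in both genotypes, with 168.7 ± 14.5 and 92.8 ± 8.16 TPM in the insertion line and 33.3 ± 2.44 and 7.47 ± 1.46 TPM in wild type, and gave -1.17 ± 0.16 (limma adjusted p = 4.8e-05), with the opposite sign in TPM and on the square root scale. The genes called above 0 were PIF6 (1.07) and PIF8 (0.76): PIF6 rose in both genotypes, more in the insertion line, and PIF8 fell in wild type alone.

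Among 34 auxin genes, 8 had a called interaction below 0 and 2 above it, and the median of -0.02 was close to that of all genes. 18 rose in the insertion line and 20 in wild type, against 11 and 17 after median-of-ratios scaling. IAA29 (AT4G32280), an auxin-response repressor that PIF proteins activate, was at 72.2, 90.7 and 70.8 TPM in the insertion line at 29 °C and at 55.8, 63.4 and 70.4 TPM at 22 °C. In wild type it was at 15.6, 15.5 and 15.6 TPM at 29 °C and at 2.44, 2.01 and 2.22 TPM at 22 °C. The insertion-line groups did not overlap but nearly touched, and the interaction was -2.07 ± 0.17 (limma adjusted p = 6.93e-08), with a difference of 1.39 TPM in the other direction in plain TPM. IAA19, of the same family, gave -1.48 ± 0.25 (limma adjusted p = 0.000293), also reversed in TPM. YUC8, an auxin synthesis enzyme, rose by 0.67 in the insertion line and 0.96 in wild type, and its interaction of -0.29 did not pass (limma adjusted p = 0.2). SAUR19 to SAUR23, small growth-promoting auxin genes of 1 cluster, were among the 8 called below 0, led by SAUR22 (-2.43) and SAUR19 (-2.41). Their sequences are nearly identical and reads may have been split between them, so their single values are uncertain.

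**Figure D2:**
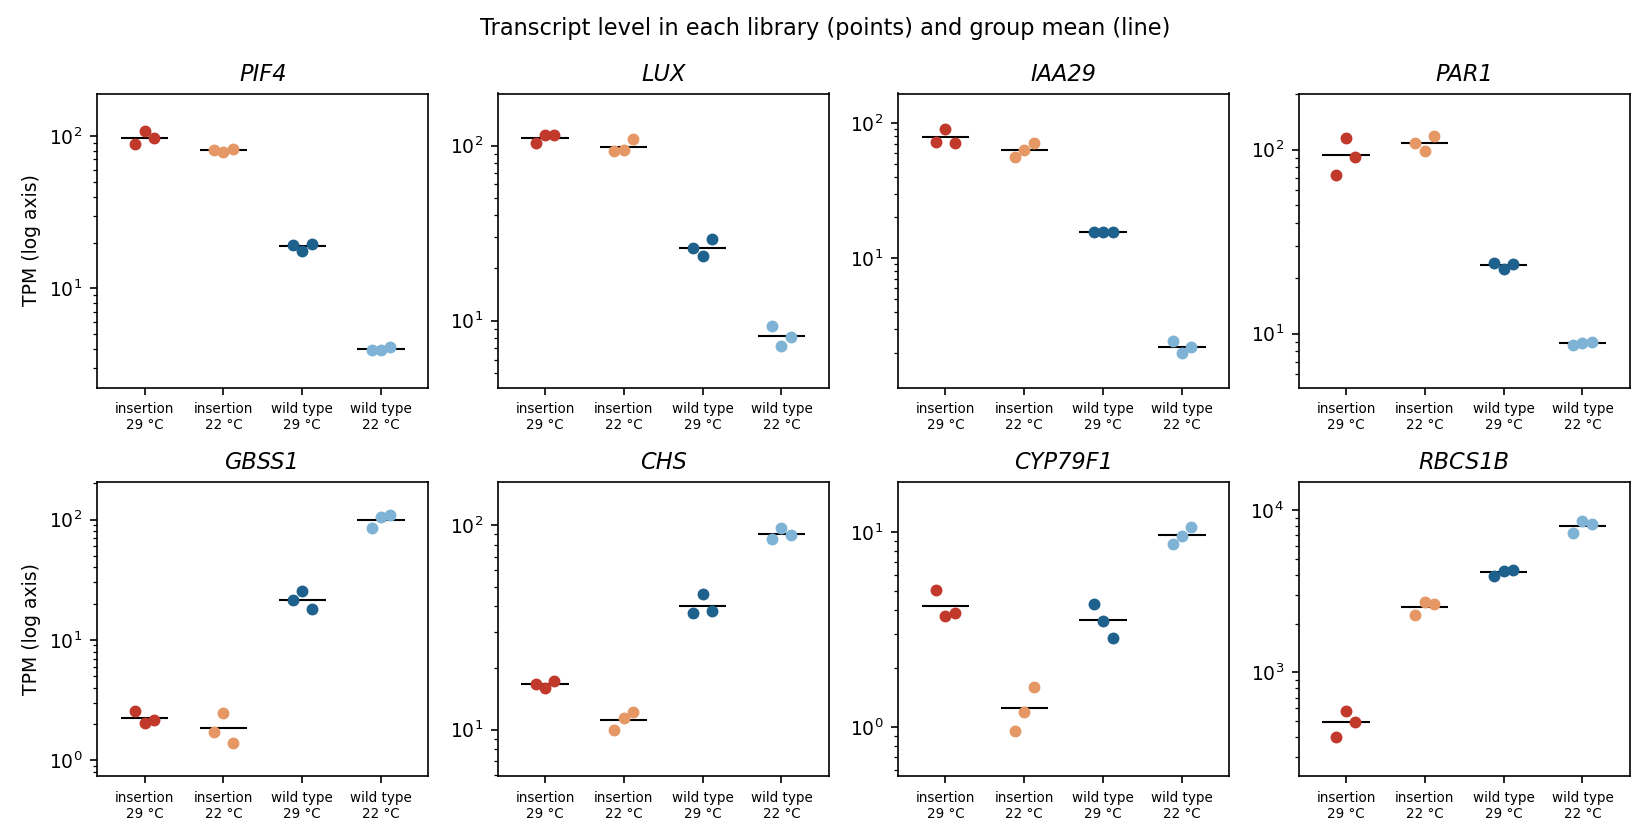
TPM in each library (points, log axis) and group mean (line) of 8 genes in the insertion line at 29 and 22 °C and in wild type at 29 and 22 °C, n = 3 libraries per group. PIF4, LUX, IAA29 and PAR1 rose in wild type and were above it in the insertion line at both temperatures, GBSS1 fell in wild type and stayed near 2 TPM in the insertion line, CYP79F1 moved in opposite directions, CHS fell in wild type and was lower in the insertion line, and RBCS1B fell further in the insertion line.

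Of the 14 cell wall loosening genes, 4 had a called interaction above 0 and none a called one below it (median 0.26). 10 rose in the insertion line against 7 in wild type. XTH15 (AT4G14130), a xyloglucan-modifying enzyme of growing walls, was at 1493, 1889.5 and 1762 TPM in the insertion line at 29 °C and at 383, 293 and 353 TPM at 22 °C. In wild type it was at 69.2, 41.0 and 58.5 TPM at 29 °C and at 25.3, 15.72 and 21.7 TPM at 22 °C. It rose in both genotypes and by more in the insertion line, with an interaction of 0.94 ± 0.31 (limma adjusted p = 0.038) whose call was lost under 12 alternatives, median-of-ratios scaling among them. XTH18, a related enzyme, was at 142, 103 and 122 TPM in the insertion line at 29 °C and at 35.7, 34.3 and 37.4 TPM at 22 °C, against 34.6, 24.6 and 39.3 TPM in wild type at 29 °C and 27.04, 23.0 and 23.5 TPM at 22 °C. Its interaction was 1.35 ± 0.27 (limma adjusted p = 0.00126), with a rise called in the insertion line alone.

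Gibberellin and brassinosteroid promote the same elongation growth. Of 15 gibberellin genes, 1 had a called interaction above 0 and 2 below it (median -0.02), against 8.72% and 9.13% of all tested genes. GA3OX1, which makes active gibberellin, rose in the insertion line alone, to 8.65 ± 0.469 TPM at 29 °C against 5.12 ± 0.336 TPM at 22 °C, with 4.93 ± 0.473 and 5.6 ± 0.555 TPM in wild type, and gave 0.81 ± 0.16 (limma adjusted p = 0.00135). Of 12 brassinosteroid genes, 3 were called above 0 and 1 below it (median 0.15). BES1, a transcription factor of brassinosteroid signalling, moved in opposite directions. It was at 123, 116 and 126 TPM in the insertion line at 29 °C and at 152, 142 and 145 TPM at 22 °C, against 205, 213 and 209.7 TPM in wild type at 29 °C and 157, 157 and 164 TPM at 22 °C. No 2 conditions overlapped within a genotype, and the interaction was -0.65 ± 0.07 (limma adjusted p = 9.83e-07).

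Most photosynthesis transcripts were lower at 29 °C in both genotypes. Of 25 antenna and Rubisco genes, 24 fell and 1 rose in the insertion line, and 21 fell in wild type. The interaction was called below 0 in 12 and above 0 in none (median -0.35). RBCS1B, a Rubisco small subunit, was at 401, 582 and 497 TPM in the insertion line at 29 °C and at 2261, 2703 and 2649 TPM at 22 °C. In wild type it was at 3911, 4239 and 4297 TPM at 29 °C and at 7254, 8526 and 8219.97 TPM at 22 °C. All 4 groups were separate and the interaction was -1.43 ± 0.15 (limma adjusted p = 2.35e-06), although wild type lost 1806.9 TPM more in plain TPM. LHCB1.1, a chlorophyll-binding antenna protein, stood at 1257 ± 28.8 TPM in the insertion line and 2627 ± 275.5 TPM in wild type at 29 °C, and at 7215 ± 981 and 7381 ± 569 TPM at 22 °C, an interaction of -1.02 ± 0.13 (limma adjusted p = 1.17e-05). RBCS1B, RBCS2B and RBCS3B, and LHCB1.1 to LHCB1.3, are near-identical copies, so the split of reads within each set is uncertain. LHCB2.1 fell in both, by 1.32 in the insertion line and 1.08 in wild type, and the interaction of -0.25 did not pass (limma adjusted p = 0.0667), though it was called under 4 alternatives, median-of-ratios scaling and quantile normalization among them.

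Of 16 chlorophyll synthesis genes, 4 were called below 0 and 2 above it (median -0.15), and 12 fell in each genotype. PORB, which reduces protochlorophyllide in light, was at 479, 490.3 and 509 TPM in the insertion line at 29 °C and at 573, 623 and 560.2 TPM at 22 °C, against 535, 582 and 538 TPM in wild type at 29 °C and 253, 287 and 285 TPM at 22 °C. PORB therefore fell in the insertion line and rose in wild type, with an interaction of -1.25 ± 0.09 (limma adjusted p = 6.02e-09). The fall in the insertion line was not called after quantile normalization. ELIP2, an early light-induced protein, fell in wild type alone and gave 2.0 ± 0.25 (limma adjusted p = 1.17e-05).

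In starch metabolism the interaction was largest for GBSS1. GBSS1 (AT1G32900), the enzyme that makes amylose, was at 2.59, 2.03 and 2.17 TPM in the insertion line at 29 °C and at 1.73, 2.46 and 1.38 TPM at 22 °C. In wild type it was at 21.4, 25.4 and 18.1 TPM at 29 °C and at 85.2, 105 and 109.9 TPM at 22 °C. The insertion-line groups overlapped, the wild-type groups did not, and the interaction was 2.37 ± 0.22 (limma adjusted p = 4.41e-07). BAM9, a catalytically inactive beta-amylase homologue, had the same shape, with 36.2 ± 3.71 and 35.6 ± 4.90 TPM in the insertion line and 107 ± 7.80 and 275 ± 20.6 TPM in wild type, and gave 1.38 ± 0.15 (limma adjusted p = 2.45e-06). AMY3, a chloroplast alpha-amylase, gave -1.0 ± 0.14 (limma adjusted p = 3.69e-05) after a rise called in wild type alone. Of 24 starch genes, 10 had a called interaction above 0 and 2 below it (median 0.17). Both synthesis genes (SS2, APL3, ADG1) and breakdown genes (SEX1, BAM1, ISA3) were among those called above 0.

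Of 19 flavonoid and anthocyanin genes tested, 13 had a called interaction above 0 and none a called one below it, with a median of 0.81 against 0.059 over all genes. In wild type 11 fell at 29 °C and none rose. In the insertion line 5 rose and none fell, but after median-of-ratios scaling 1 rose and 1 fell there. Chalcone synthase (CHS, AT5G13930), the entry enzyme, was at 16.8, 16.0 and 17.2 TPM in the insertion line at 29 °C and at 9.95, 11.4 and 12.2 TPM at 22 °C. In wild type it was at 37.1, 45.9 and 38.0 TPM at 29 °C and at 85.9, 96.7 and 89.0 TPM at 22 °C. The insertion line stayed below wild type at both temperatures, and CHS had an interaction of 1.69 ± 0.20 (limma adjusted p = 7.51e-06). Its rise in the insertion line (0.54) was not called after median-of-ratios scaling or quantile normalization (0.33 in both). The flavonol synthase FLS1 gave 1.65 ± 0.19 (limma adjusted p = 6.77e-06), with 3.26 ± 0.229 and 2.36 ± 0.589 TPM in the insertion line and 10.2 ± 0.785 and 26.5 ± 1.90 TPM in wild type. DFR, an anthocyanin enzyme, gave 1.57 ± 0.20 (limma adjusted p = 1.38e-05), and was at most 0.35 TPM in every insertion-line library.

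Aliphatic glucosinolates are methionine-derived defence compounds. Of 14 genes of their synthesis, 12 had a called interaction above 0 and none a called one below it (median 0.83). In the insertion line 12 rose and none fell, and in wild type 7 fell and none rose. Relative to wild type, 13 of 14 were lower in the insertion line at 22 °C, where 42.9% of tested genes were called and 18.4% lower, and 3 at 29 °C (38.3% called, 13.5% lower). CYP79F1 (AT1G16410), which opens the core pathway, was at 5.03, 3.69 and 3.85 TPM in the insertion line at 29 °C and at 0.95, 1.2 and 1.61 TPM at 22 °C. In wild type it was at 4.29, 3.5 and 2.85 TPM at 29 °C and at 8.65, 9.57 and 10.7 TPM at 22 °C. The genotypes overlapped at 29 °C and were far apart at 22 °C, and the interaction was 2.44 ± 0.23 (limma adjusted p = 3.81e-07). MYB29, a regulator of the pathway, gave 1.43 ± 0.16 (limma adjusted p = 4.25e-06), and the side-chain oxygenase FMOGS-OX1 gave 1.53 ± 0.19 (limma adjusted p = 1.11e-05). The median root marker differed between 29 and 22 °C by 0.26 in the insertion line and -0.14 in wild type, and its part in this list was not tested. With the root score as a covariate across groups, 10 of the 14 had a called interaction above 0. The root score itself differs between the compared groups, so that fit cannot decide its part. Of the 24 root markers, 2 had a called interaction above 0, PHT1-4 (1.12) and SCR (0.27), and none a called one below it (median 0.47). Over all tested genes 8.72% were called above 0, so this count is near that share. The SCR call was lost under 12 alternatives, median-of-ratios scaling and the replicate block among them.

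**Figure D3:**
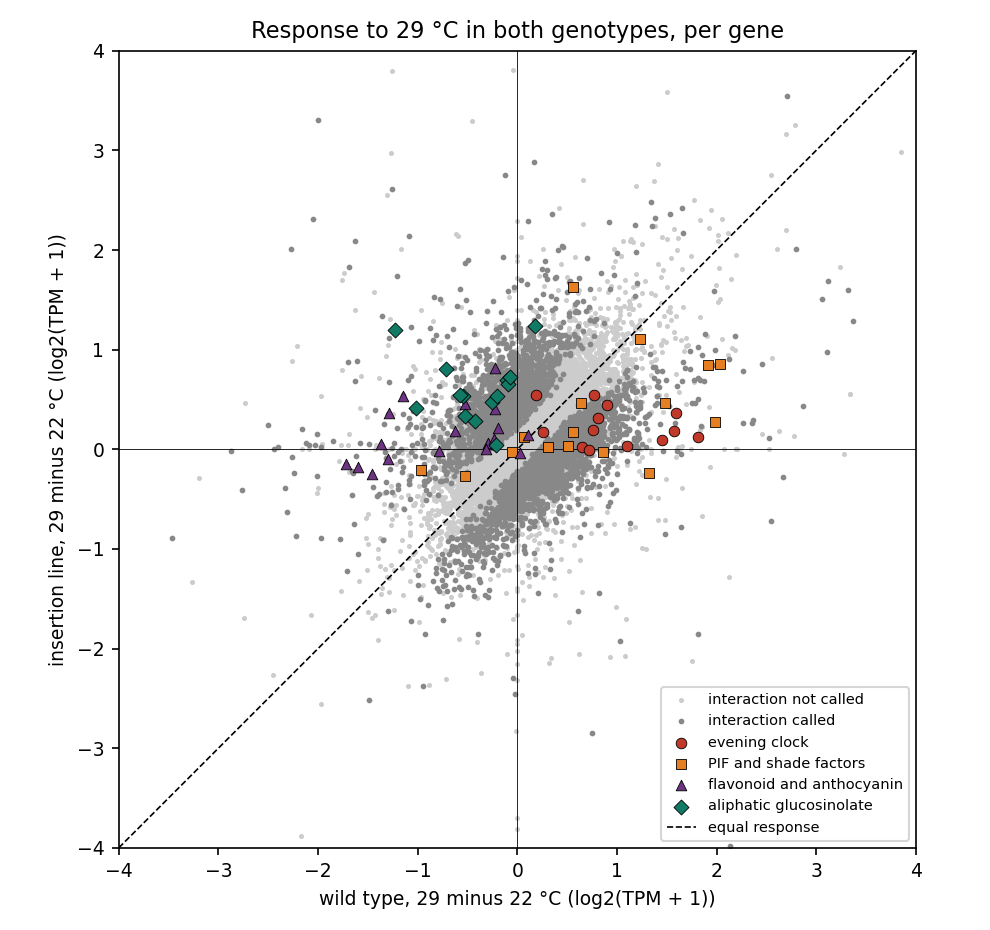
Difference between 29 and 22 °C on log2(TPM + 1) in the insertion line (y axis) and wild type (x axis) for each tested gene, with 4 gene lists marked and 9 genes outside the plotted range of 4 log2. Evening clock genes other than FKF1 and most PIF genes lie below the line of equal response, and flavonoid and glucosinolate genes lie mostly above it.

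Genes induced by darkness and low sugar numbered 20, of which 12 rose and none fell in the insertion line, against 7 and 4 after median-of-ratios scaling, and 14 rose in wild type. For these genes the interaction was called below 0 in 7 and above 0 in 2 (median -0.25). DIN1 and DRM1, dark-inducible and dormancy-associated genes, were at 2426 ± 547 and 2034 ± 519.9 TPM in the insertion line at 29 °C and at 1329.9 ± 248 and 1108 ± 42.4 TPM at 22 °C. In wild type they were at 557 ± 133 and 486 ± 47.4 TPM at 29 °C and at 98.9 ± 8.30 and 125 ± 26 TPM at 22 °C. Their interactions were -1.59 and -1.12 on the log scale (limma adjusted p = 0.00249 and 0.00261), while in TPM the insertion line gained 638.4 and 565.3 more than wild type.

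Most heat shock genes were higher at 29 °C in both genotypes. Of 24 genes, 21 rose in the insertion line and 20 in wild type, against 37.9% and 28.8% of all tested genes. Median rises were 1.17 and 1.03, and the interaction was called above 0 in 5 and below 0 in 1 (median 0.22). HSP70 (AT3G12580), a cytosolic chaperone, was at 103, 70.4 and 87.9 TPM in the insertion line at 29 °C and at 5.25, 6.09 and 8.34 TPM at 22 °C, against 59.0, 47.3 and 51.1 TPM in wild type at 29 °C and 7.51, 7.12 and 6.92 TPM at 22 °C. The genotypes overlapped at 22 °C and were separate at 29 °C, and the interaction was 0.84 ± 0.23 (limma adjusted p = 0.013), a call lost with the root score as a covariate across groups. HSP90.1 and MBF1C rose in both with interactions of 0.47 and 0.14 that did not pass.

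Cold-response genes were split, with 4 of 15 called above 0 and 2 below it (median 0.14). KIN1, a cold- and drought-induced gene, was at 6.23, 13.0 and 8.07 TPM in the insertion line at 29 °C and at 14.3, 14.8 and 13.1 TPM at 22 °C. In wild type it was at 2.74, 3.63 and 2.34 TPM at 29 °C and at 17.2, 18.1 and 19.2 TPM at 22 °C. It fell in both and less in the insertion line, with an interaction of 1.67 ± 0.22 (limma adjusted p = 2.67e-05). COR413IM1, a chloroplast membrane protein gene, gave -1.30 ± 0.27 (limma adjusted p = 0.00208) from levels of 256 ± 53.2 and 178 ± 11.5 TPM in the insertion line and 9.99 ± 0.772 and 2.22 ± 0.873 TPM in wild type, with the opposite sign in TPM. CBF1, a cold regulator, was lower at 29 °C in the insertion line, at 0.75 ± 0.0985 TPM against 1.90 ± 0.246 TPM at 22 °C. In wild type it was at 0.163 ± 0.127 TPM at 29 °C and 0.0467 ± 0.0451 TPM at 22 °C, too low to show a fall. The CBF1 interaction was -0.87 ± 0.17 (limma adjusted p = 0.00115).

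Of 18 abscisic acid and drought genes, 5 were called above 0 and 2 below it (median 0.30). ABF3, an abscisic acid transcription factor, was at 101, 98.3 and 112 TPM in the insertion line at 29 °C and at 50.8, 52.6 and 42.1 TPM at 22 °C, against 61.9, 61.5 and 47.9 TPM in wild type at 29 °C and 58.2, 50.8 and 52.7 TPM at 22 °C. Only the insertion line at 29 °C stood apart, and the interaction was 1.01 ± 0.17 (limma adjusted p = 0.00026). RD22, a dehydration-responsive gene, gave 1.27 ± 0.22 (limma adjusted p = 0.000382) with the same pattern of calls.

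Jasmonate genes gave 2 called interactions above and 2 below 0 of 21 (median 0.39), near the shares over all tested genes (8.72% and 9.13%). Of these genes 13 rose in the insertion line and 4 in wild type, against 37.9% and 28.8% of all tested genes. Single members are given as examples. AOS, an enzyme of jasmonate synthesis, was at 38.3, 40.1 and 40.9 TPM in the insertion line at 29 °C and at 19.7, 22.0 and 23.2 TPM at 22 °C. In wild type it was at 29.4, 31.0 and 31.7 TPM at 29 °C and at 29.2, 32.8 and 29.9 TPM at 22 °C. AOS rose in the insertion line by 0.85 ± 0.08 (limma adjusted p = 2.18e-08), and its interaction was 0.85 ± 0.11 (limma adjusted p = 1.94e-05). ST2A, a sulfotransferase that inactivates a jasmonate, rose in both and gave -1.42 ± 0.22 (limma adjusted p = 0.000121), with 380.4 ± 10.6 and 119 ± 25.5 TPM in the insertion line and 30.2 ± 5.08 and 2.58 ± 0.532 TPM in wild type. On the square root scale its interaction was 4.77 and called in the other direction. Salicylic acid genes gave 4 called interactions above and none below 0 of 11 (median 0.28), and none with the root score as a covariate across groups. Of 13 rapid touch and wound genes 1 was called below 0 (ERF104, -0.52, a call lost under 6 alternatives) and none above it (median 0.15).

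Flowering genes gave no called interaction above 0. Of 8 promoters tested, 4 were called below it (median -0.44). FLP1, a flowering-promoting factor, was at 76.2, 90.6 and 89.8 TPM in the insertion line at 29 °C and at 25.3, 25.9 and 31.7 TPM at 22 °C. In wild type it was at 13.5, 11.5 and 18.6 TPM at 29 °C and at 0.55, 0.25 and 0.86 TPM at 22 °C. FLP1 rose in both genotypes, its interaction was -1.72 ± 0.25 (limma adjusted p = 7.32e-05), and it had the opposite sign on the square root scale and in TPM. SOC1, a floral integrator, fell in both and further in the insertion line, to 4.18 ± 0.359 TPM at 29 °C against 12.5 ± 0.917 TPM at 22 °C, with 4.07 ± 0.738 and 6.07 ± 0.319 TPM in wild type (-0.89 ± 0.17, limma adjusted p = 0.000781). FT, the mobile flowering signal, was at most 0.37 TPM in every library, too low for a comparison. Of 12 repressors, TEM1 alone was called below 0 (-0.50) and none was called above it (median -0.10). Of 5 CDF and photoperiod genes, CO (-0.44) and CDF5 (-0.50) were called below 0 and none above it (median -0.33). The CDF5 call was lost under 8 alternatives and the CO call under 3, with the replicate block among both.

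**Figure D4:**
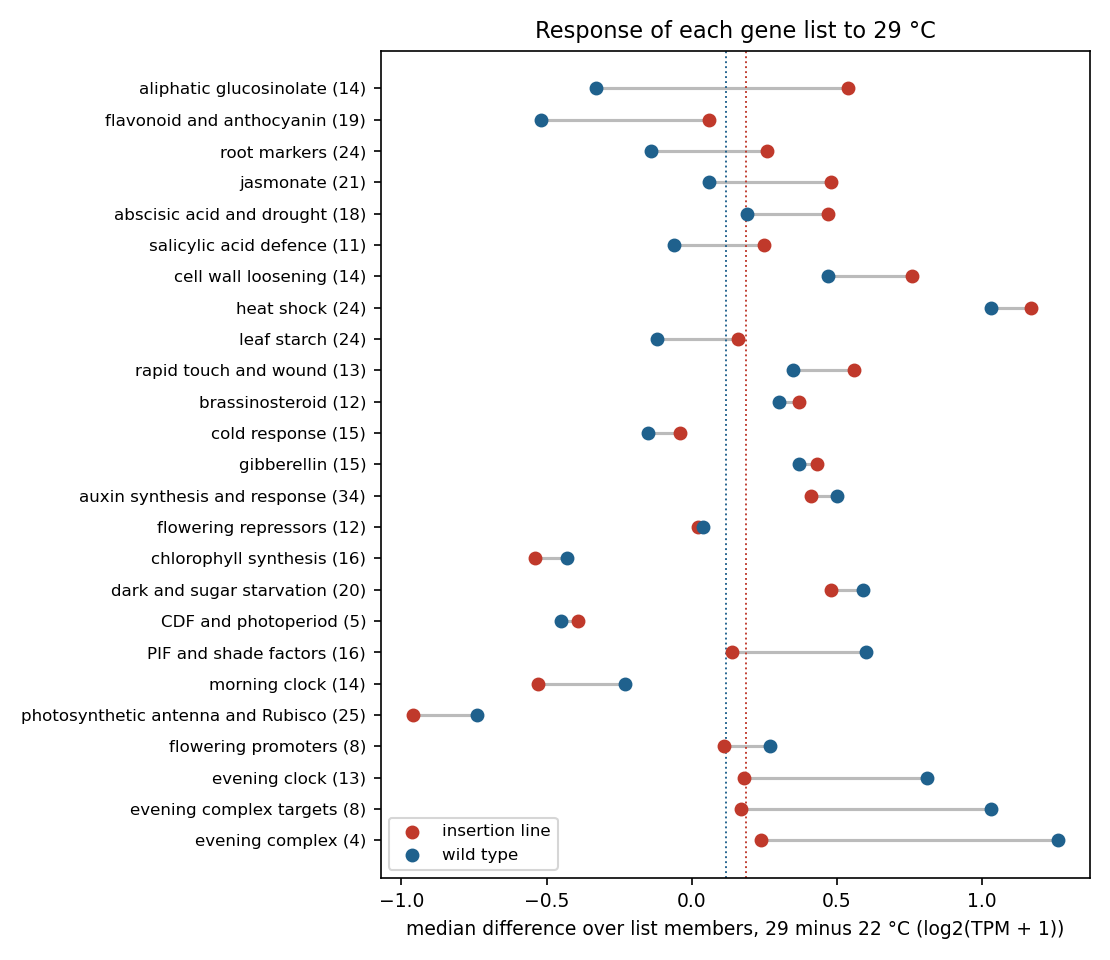
Median difference between 29 and 22 °C on log2(TPM + 1) over the tested members of each list (number in brackets) in the insertion line and wild type, with dotted lines at the median of all tested genes in each genotype (0.186 and 0.117). The insertion line lay furthest above wild type for aliphatic glucosinolate and flavonoid genes, and furthest below it for the evening complex (0.24 against 1.26) and its targets.

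Outside the lists, the largest interactions with a mean of at least 5 TPM were of 2 kinds. Some rested on steady replicates. AT1G55960, a gene of the polyketide cyclase and lipid transport family, was at 22.1, 22.6 and 24.4 TPM in the insertion line at 29 °C and at 18.1, 19.0 and 21.0 TPM at 22 °C, against 29.1, 28.2 and 26.4 TPM in wild type at 29 °C and 142, 166 and 183 TPM at 22 °C. Wild type at 22 °C alone stood apart by a wide margin, and the interaction was 2.75 ± 0.10 (limma adjusted p = 2.75e-13). THI2.2, a thionin defence peptide gene, was at 8.17, 14.9 and 10.8 TPM in the insertion line at 29 °C and at 9.82, 9.13 and 15.1 TPM at 22 °C, against 2.21, 1.83 and 2.09 TPM in wild type at 29 °C and 20.5, 20.3 and 23.2 TPM at 22 °C, and gave 2.86 ± 0.23 (limma adjusted p = 5.12e-08). AT3G62550 ran the other way. It was at 30.0, 40.5 and 29.4 TPM in the insertion line at 29 °C and at 37.1, 40.2 and 43.1 TPM at 22 °C, against 16.7, 15.9 and 21.7 TPM in wild type at 29 °C and 2.02, 1.4 and 2.67 TPM at 22 °C, and gave -2.94 ± 0.28 (limma adjusted p = 3.81e-07).

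CCL and RTFL21 rose in both genotypes, far more steeply on the log scale in wild type, with interactions of -2.08 ± 0.22 and -2.12 ± 0.24 (limma adjusted p = 2.29e-06 and 5.66e-06) that turned positive in TPM. CCL was at 954 ± 116 and 390 ± 54.1 TPM in the insertion line and at 153 ± 12.2 and 14.1 ± 3.37 TPM in wild type. AT1G26790, a Dof zinc finger factor, fell in both, and gave 2.36 ± 0.13 (limma adjusted p = 2.46e-10) with at most 0.39 TPM in every insertion-line library. Others rested on uneven replicates. The non-coding AT2G08665 had the lowest estimate of all, -15.11 ± 4.09 (limma adjusted p = 0.0134), from 15413, 8260 and 415 TPM in the insertion line at 22 °C, a listed 0 in its 3 libraries at 29 °C, and 838 TPM in 1 wild-type library. AT1G07737, AT5G01195, AT1G23050, GGPPS1, SIB2 and the related pair AT4G22505 and AT4G22513 also had standard errors of 0.63 to 2.37 log2.

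The insertion line's response was last set against that of the S364P line, without a wild-type library in the contrast. The insertion line minus S364P difference was called in 1202 genes (5.62%; 0.752% at 1 log2 or more), 442 above 0 (2.07%) and 760 below it (3.55%), and in 759 without replicate 2 of the S364P line at 29 °C and in 793 without either replicate 1 of the insertion line at 22 °C or replicate 3 at 29 °C. After median-of-ratios scaling 48.3% of calls were above 0 and after quantile normalization 58.2%, against 36.8% in TPM, so no balance of directions is given. CCA1 was at 4.11, 4.84 and 4.18 TPM in the S364P line at 29 °C and at 101, 93.4 and 88.9 TPM at 22 °C. Set beside the insertion line's values above, the groups at 22 °C lay far apart and those at 29 °C were both under 10 TPM. CCA1 gave 3.12 ± 0.14 (limma adjusted p = 3.06e-12) and LHY 3.03 ± 0.16 (limma adjusted p = 4.22e-11). LHCB2.1, at 187, 173 and 177 TPM in the S364P line at 29 °C and at 1906, 1616 and 1642 TPM at 22 °C, gave 1.93 ± 0.09 (limma adjusted p = 7.74e-12), and GBSS1 gave 1.47 ± 0.22 (limma adjusted p = 0.000313).

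The evening complex genes gained more at 29 °C in the S364P line than in the insertion line. LUX was at 108, 114 and 122 TPM in the S364P line at 29 °C and at 47.9, 43.0 and 50.1 TPM at 22 °C, a difference of -1.09 ± 0.13 (limma adjusted p = 1.09e-05), and ELF4 gave -1.43 ± 0.27 (limma adjusted p = 0.00288). All 4 complex genes and 9 of 13 evening clock genes were called below 0 in this comparison, and 10 of 14 morning clock genes above it. XTH15, at 1175, 935 and 1191 TPM in the S364P line at 29 °C and at 34.8, 65.7 and 42.6 TPM at 22 °C, gave -2.22 ± 0.31 (limma adjusted p = 0.000103). PIF4 (-0.37 ± 0.12, limma adjusted p = 0.0906) and PRR7 (0.01 ± 0.17, limma adjusted p = 0.982) did not pass. Of 14 glucosinolate genes, 6 were called above 0 and none below it.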

How the data were processed

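Messenger RNA of Arabidopsis thaliana seedlings had been sequenced in 27 libraries of 9 groups, 12 of which form the interaction. The TPM values, made by the authors, were taken as deposited, 1 column per library for 33039 genes, per the file headers. Aligner, quantifier and genome build: not given in the sources used here. Of 32547 gene IDs matched to RefSeq TAIR10.1, 32373 (99.5%) had a length in the table equal to a RefSeq transcript length, so names and start-site windows were taken from TAIR10.1. 1 line without values was left out.

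Values were transformed to log2(TPM + 1), which understates the change of low genes, and 21396 genes that reached 1 TPM in 3 or more of 27 libraries were tested. A mean for each of 9 groups was fitted with limma 3.58.1 (R 4.3.3), with a variance trend, 18 residual and 3.17 prior degrees of freedom. Contrasts were two-sided with Benjamini-Hochberg adjustment over all tested genes. The same test was tried on simulated data. Tables were made with pandas 2.3.3 and NumPy 2.4.6 and plots with matplotlib 3.10.9, under Python 3.11.15.

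The comparison, the 26 gene lists (419 genes, 35 below the filter), the 22 core genes and the tests were chosen with earlier results of these data known. Lists share members and got no test of their own. Named genes were the core genes, the 8 highest and 8 lowest called interactions with a mean of at least 5 TPM, up to 3 called members of each list with the largest interaction, and up to 4 such genes of each response pattern. Other list members named with values were picked after their values were seen. The root score is the mean log2(TPM + 1) of the root markers. Alternatives were pseudocounts of 0.1 and 5, filters of none and 5 TPM, scaling by median-of-ratios or by quantiles, leaving out 285 organelle genes, a fit of the compared groups alone, the replicate number as a block, the root score within groups as a covariate, a square root scale, a minimum of 1 log2 and each library left out. The root score across groups and the sign in plain TPM were added after seeing the data.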

Additional observations from a re-analysis of the deposited data

Results flagged for a closer look

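The results here are those in which groups differed in their change between 22 and 29 °C, which the protocol ties to Zeitgeber times of 16 h and 24 h, by the limma test of the difference itself. Values are on log2(TPM + 1). Errors and adjusted p-values are given above, or below for the contrasts with the S364P line that were not described there. Over all genes, the insertion line differed from wild type in 3818 genes and from the S364P line in 1202. Among the core genes, the insertion line's response was below that of wild type for ELF3 (-0.78), LUX (-1.39), BOA (-1.23), PRR9 (-0.60), PRR7 (-1.26), TOC1 (-0.47), PIF4 (-1.71), IAA19 (-1.48), IAA29 (-2.07) and ATHB2 (-1.17). It was above that of wild type for XTH15 (0.94) and GBSS1 (2.37).

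Against the S364P line, the insertion line's response was lower for ELF4 (-1.43), LUX (-1.09) and XTH15 (-2.22). It was also lower for ELF3 (-0.40 ± 0.11, limma adjusted p = 0.0363), BOA (-0.99 ± 0.14, limma adjusted p = 0.000138), TOC1 (-0.80 ± 0.10, limma adjusted p = 3.59e-05), GI (-0.63 ± 0.17, limma adjusted p = 0.0321) and ATHB2 (-0.83 ± 0.16, limma adjusted p = 0.00401). It was higher for CCA1 (3.12), LHY (3.03), LHCB2.1 (1.93), GBSS1 (1.47), PRR9 (0.73 ± 0.13, limma adjusted p = 0.00108) and RVE8 (1.72 ± 0.19, limma adjusted p = 6.53e-06). XTH15 and PRR9 stood on opposite sides of 0 in both comparisons. No library was tested as an outlier, since groups of 3 are too small for that test.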

How the results depend on the processing

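Of 91 named genes with a called interaction, 48 kept direction and call under each alternative recomputed for single genes, which leaves out the minimum of 1 log2. Some signs differed between scales: the difference of differences in TPM was above 0 for TOC1 (5.97), PIF4 (2.06), IAA19 (28.0), IAA29 (1.39), ATHB2 (50.1), GAI (3.54), COR413IM1 (70.6), RBCS1B (1806.9), FLP1 (43.9), DIN1 (638.4), DRM1 (565.3), ST2A (234.0), RTFL21 (21.6) and CCL (425.3), all below 0 on log2. On the square root scale ATHB2 (0.31), COR413IM1 (0.93), FLP1 (0.92), DRM1 (0.69), ST2A (4.77) and CCL (2.52) were above 0. Over all called genes, 106 (2.78%) had the opposite sign in TPM.

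With a minimum of 1 log2, 402 interactions (268 above 0, 134 below), 686 insertion-line responses, 527 wild-type responses and 161 differences from the S364P line remained. The patterns then held 150 genes in the insertion line alone, 109 in wild type alone, 50 in the same direction, 87 in opposite directions and 6 in neither. Groups fitted alone gave 456 differences from the S364P line and 201 genes in opposite directions. Genes in neither numbered 164 after median-of-ratios scaling and 166 after quantile normalization. The root score within groups gave 2859 genes above 0. The root score across groups gave 2399 interactions, 880 above 0, with 709 genes in the insertion line alone and 11 in neither. The cause of these shifts was not tested.

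Leaving out each library gave 2561 to 4273 interactions, 1045 to 2150 above 0, 759 to 1715 differences from the S364P line, 804 to 1790 genes in the insertion line alone (804 without its replicate 1 at 22 °C, 1002 without its replicate 3 at 29 °C) and 36 to 95 in neither.

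Over all group pairs, same-numbered libraries deviated together no more than others (r = -0.204 to 0.216, median -0.004, against -0.263 to 0.243). Between the wild-type groups, same-numbered pairs gave 0.216, 0.159 and 0.025, against -0.181 to 0.019 for the others. Between the insertion-line groups they gave 0.051, -0.187 and 0.065, against -0.177 to 0.114. A pairing within wild type can therefore not be set aside. With the replicate block, in the compared groups alone, 2431 interactions were called (1077 above 0), 4217 insertion-line responses and 286 differences from the S364P line, with 605 genes in the insertion line alone, 367 in the same direction, 107 in opposite directions and 256 in neither. Depth is unknown, so the counting error of changes near 1 TPM could not be given.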
